A study of Mus musculus with 18 samples.

Results

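Genes of BMP and Wnt signalling (10 in all) were read in the brains of Brca1 conditional knockout mice: the BMP ligands Bmp4, Bmp5, Bmp6 and Bmp7, the Wnt ligands Wnt5a and Wnt7b, and the transcriptional regulators Id1, Id2, Id3 and Id4. The genes were taken by name, out of 18193 genes with a probe set, and every probe set annotated to exactly 1 of them was kept. This gave 22 probe sets of 45037 in all: 19 of 22626 on a cortex A chip, 3 of 22511 on a cortex B chip, and all 22 on an array hybridised with samples titled rest.

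Brain RNA from mice at postnatal day 7 was hybridised to 18 Affymetrix arrays, in 6 groups of 3 (wild type and knockout for each of the 3 tables). The knockout animals carried nestin-driven Cre and 2 altered copies of Brca1: in one, exons 5 to 13 are floxed, and the other is a null in which an inverted neo cassette sits in exon 11. The nestin promoter is active in neural progenitors, so that recombination is directed to their descendants, whereas the null allele is in every cell of the animal. The wild-type animals are described by genotype only. The design names 3 animals of each genotype as the source of the cortices. Whether the rest samples came from the same animals, and which regions rest includes, is not given.

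BMPs are secreted ligands that bind paired serine/threonine kinase receptors, which activate Smad transcription factors. The Id genes are classic direct targets of these Smads, and Id proteins lack a DNA-binding region: they bind E proteins and so hold back basic helix-loop-helix (bHLH) factors that drive neuronal and oligodendrocyte differentiation. Wnt ligands bind Frizzled receptors, with β-catenin as the mediator of one branch and Ror receptors in another. In the developing forebrain, BMP and Wnt ligands come from dorsal midline tissue, choroid plexus, meninges and neural cells, and Id1 and Id3 are known from endothelial cells and astrocytes.

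Arrays of 1 table listed a signal for 33.6% to 58% of its probe sets and left the rest blank, and no reason for the blanks is given. Signals below are MAS5 signals on a linear scale, brought to a common level within each table, so levels were not compared across tables or between probe sets. Log2 changes are knockout minus wild type on log2(signal + 16), which understates the change of dim probe sets. A probe set was tested where at least 2 arrays of each genotype listed it, and called at a limma adjusted p under 0.05. Neuron markers were all measurable in the cortex (12 of 12 on the A chip). There, 7 of 12 genes of a cerebellum, midbrain and hindbrain list were blank on every array, En1 and Hoxb2 among them. In rest 1 of 13 genes of that list was blank on every array, and this was also Hoxb2. Of 8 cortical excitatory neuron genes, 1 (Emx1) was blank on every rest array, and 6 could be tested there. Brca1 itself could be tested by 1 probe set only, with 3 arrays a genotype. That probe set did not differ detectably (limma adjusted p = 0.496 in cortex and 0.978 in rest). In the cortex it read 38, 36.9 and 48.9 in wild type and 51.4, 44 and 61.4 in knockout. These values lie near the 5th percentile of the arrays (37.5 to 46.8). The other Brca1 probe sets were blank on all cortex arrays, and in rest were blank or listed on too few arrays to be tested. The exons the probe sets read are not given, so these values cannot decide whether Brca1 was lost. The Y-linked gene Eif2s3y was listed on knockout replicates 1 and 2 of every table and on no other array. Sex and genotype thus overlap in part, and an estimate adjusted for this sex pattern rests on knockout replicate 3 alone.

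In the knockout cortex, 6 of the 10 genes had a probe set that rose: Bmp6, Bmp7, Wnt5a, Id1, Id3 and Id4. None fell. Of the 19 probe sets on the A chip, 12 (8 genes) could be tested and 6 were called higher, against 2.3% of all probe sets tested on that chip called higher and 0.713% called lower. The median log2 change of the 12 was 0.48, beside -0.01 for all probe sets tested, and 11 of the 12 were above 0. Of the 7 that could not be tested, 2 were blank on every array and 3 were blank on every wild-type array.

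**Figure D1:**
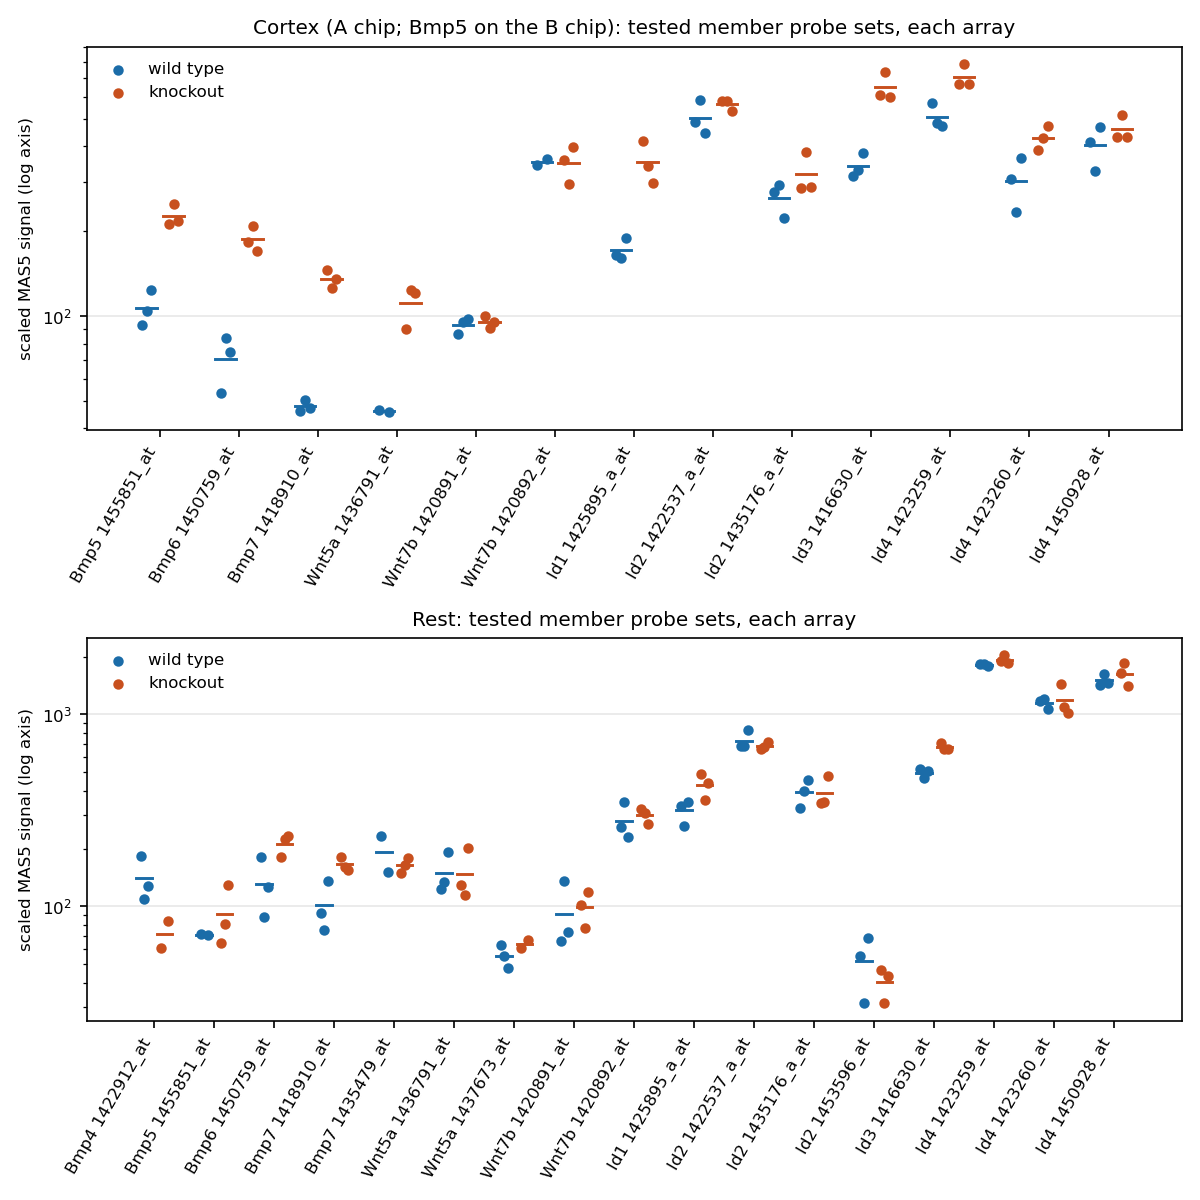
Scaled MAS5 signal of each tested probe set of the 10 genes on each array (log axis), wild type in blue and knockout in orange; bars are means of the arrays that list a signal, up to 3 a genotype. In the cortex (top), Bmp6, Bmp7, Wnt5a, Id1 and Id3 have no overlap between genotypes, whereas both Wnt7b probe sets overlap; in rest (bottom), Wnt5a and Wnt7b overlap.

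Among the BMP ligands, Bmp6 and Bmp7 rose in the cortex. Bmp7 is a ligand of the 60A subgroup known for roles in meninges, kidney and eye. Its probe set 1418910_at read 46.2, 50.5 and 47.1 in the wild-type cortices and 146, 126 and 135.8 in the knockout cortices. Every knockout array stood above every wild-type array, and the mean signal was 2.84-fold higher (log2 change 1.25, SE 0.128, limma adjusted p = 0.000472). The other Bmp7 probe sets were blank on all wild-type cortex arrays. In the knockout, 1435479_at was listed on all 3 arrays (132.8, 127.6 and 155.6) and 1432410_a_at on 2 of 3 (68.1 and 90.4). No fold was formed against a blank group. With blanks set to a low signal (37.5 to 46.8, the 5th percentile of each array), every wild-type value of these probe sets was a filled-in one. Such a fit cannot test a difference, since the filling sets the wild-type level and spread.

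Bmp6, a close relative of Bmp7 and also the ligand through which liver endothelium controls hepcidin, rose by a like amount. It read 53.2, 83.9 and 74.9 in wild type and 182.9, 209.1 and 170 in knockout. The genotypes did not overlap, and the mean was 2.65-fold higher in knockout (log2 change 1.24, SE 0.158, limma adjusted p = 0.00155). Bmp5, the third ligand of this subgroup, was readable on the B chip (probe set 1455851_at), at 92.7, 104.4 and 123.5 in wild type and 212.7, 249.2 and 217.6 in knockout. Again the genotypes did not overlap, with a ratio of means of 2.12 and a log2 change of 0.99 (95% interval 0.55 to 1.42). It did not pass the threshold (limma adjusted p = 0.0649; 0 of 1 member probe set tested on the B chip was called). On that chip 0.23% of probe sets were called higher and 0.051% lower, and 7.39% had an unadjusted p under 0.05 in limma, as Bmp5 did. Both Bmp5 probe sets of the A chip were blank on all wild-type arrays, and only 1421283_at had a signal at all, of 28.8 in 1 knockout.

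Bmp4, the ligand of dorsal midline patterning and a known inhibitor of oligodendrocyte formation, was listed on too few cortex arrays to be tested. It read 48.6 on 1 wild-type array and 47 and 54.9 on 2 knockout arrays, so the listed values nearly coincided.

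The Bmp6 promoter is shown because Bmp6 is the only ligand that both rose and has a RefSeq promoter entry here (250 bases before to 50 after the start, 300 in all; GRCm38.p6, chr13:38345466-38345765, plus strand). Capitals mark E-boxes (CANNTG), the motif of bHLH factors that Id proteins hold back.

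Bmp6: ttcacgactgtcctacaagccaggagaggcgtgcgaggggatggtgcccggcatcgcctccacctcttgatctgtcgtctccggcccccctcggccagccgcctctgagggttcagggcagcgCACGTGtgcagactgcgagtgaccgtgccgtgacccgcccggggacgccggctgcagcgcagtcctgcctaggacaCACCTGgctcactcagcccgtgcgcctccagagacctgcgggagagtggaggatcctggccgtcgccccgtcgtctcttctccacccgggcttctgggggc

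Both of its E-boxes, CACGTG and CACCTG, lie 127 and 51 bases before the start. E-boxes were found in 72.3% of 32851 RefSeq promoters of this length, searched on both strands, so 2 matches are a description of the sequence and no more. Entries matched 6 of the 10 genes; Bmp7, Wnt5a, Wnt7b and Id1 had none.

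The Wnt ligands did not move together. Wnt5a, which signals mainly through Ror receptors without β-catenin, was listed by probe set 1436791_at at 46.4 and 45.6 in wild-type cortex, blank in wild-type replicate 3, and at 89.8, 123.9 and 120.6 in knockout. The mean was 2.42-fold higher in knockout (log2 change 1.03, SE 0.172, limma adjusted p = 0.0107), on 2 wild-type arrays against 3. The call was lost without knockout replicate 2 (limma adjusted p = 0.0574) or knockout replicate 3 (0.05), and no value was possible without wild-type replicate 1 or 2. The other Wnt5a probe sets did not reach the test in the cortex: 1448818_at was blank throughout, and on the B chip 1437673_at read 78.6 in 1 wild type and 101.4 and 105.5 in 2 knockouts. The last, 1456976_at, read 163 in 1 wild type and 188.5, 135.3 and 198.6 in knockout, which overlap.

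Wnt7b, a β-catenin-dependent ligand from neural cells that guides growth of brain vessels, showed no detectable difference. Probe set 1420891_at read 86.4, 95 and 98 in wild type and 100.4, 90.9 and 95.7 in knockout. The genotypes overlapped, with a log2 change of 0.03 (95% interval -0.24 to 0.31, limma adjusted p = 0.929). Its other probe set, 1420892_at, read 344.9 and 360.5 in wild type and 358.4, 295.4 and 397.8 in knockout, a log2 change of -0.02 (95% interval -0.31 to 0.28). For both, the interval of this fit leaves out a change as large as that of Wnt5a, 1.03. For 1420892_at the change was 0.85 with blanks set low, which replaced the blank of wild-type replicate 3.

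The Id genes split the same way. Id1 and Id3 rose, Id4 rose by 1 of its 3 probe sets, and no Id2 probe set passed. Id1, which sustains stem cells of the adult brain and vessel growth, read 164.2, 161.3 and 188.9 in wild-type cortex and 418.9, 340.8 and 296.1 in knockout. Every knockout array lay above every wild-type array, and the mean was 2.05-fold higher (log2 change 0.96, SE 0.133, limma adjusted p = 0.00246). Id3, its usual partner in expression, read 313.4, 331 and 378.4 in wild type and 609.5, 737.2 and 597.1 in knockout. The genotypes again stood apart, by 1.9-fold in the mean (log2 change 0.89, SE 0.108, limma adjusted p = 0.0011).

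Id4, a regulator of neural progenitor division and of oligodendrocyte timing, changed less. Probe set 1423259_at read 568.2, 484.5 and 474.3 in wild type and 666.1, 781.8 and 668.2 in knockout. The mean was 1.39-fold higher with no overlap (log2 change 0.46, SE 0.099, limma adjusted p = 0.0314). This call held in 1 of 6 fits that left out an array: it was lost without wild-type replicate 2 (limma adjusted p = 0.0969) or 3 (0.0884), or without knockout replicate 1 (0.062), 2 (0.135) or 3 (0.0627). Probe set 1423260_at did not pass (306.6, 235 and 362.9 against 389.4, 427.8 and 472.9; log2 change 0.51, limma adjusted p = 0.0976). The third, 1450928_at, overlapped between genotypes (log2 change 0.19, adjusted p = 0.538).

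Id2, known from dendritic and neuronal precursors as well as glia, read 488.3, 582.3 and 445.5 in wild-type cortex and 581.6, 581.2 and 535.3 in knockout by probe set 1422537_a_at. The ranges overlapped, and the log2 change was 0.17 (95% interval -0.06 to 0.39, limma adjusted p = 0.488). By 1435176_a_at the change was 0.25 (95% interval -0.05 to 0.56, adjusted p = 0.414). These intervals leave out changes as large as those of Id1 and Id3. Probe set 1453596_at was listed on 1 wild-type and 2 knockout arrays and not tested.

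**Figure D2:**
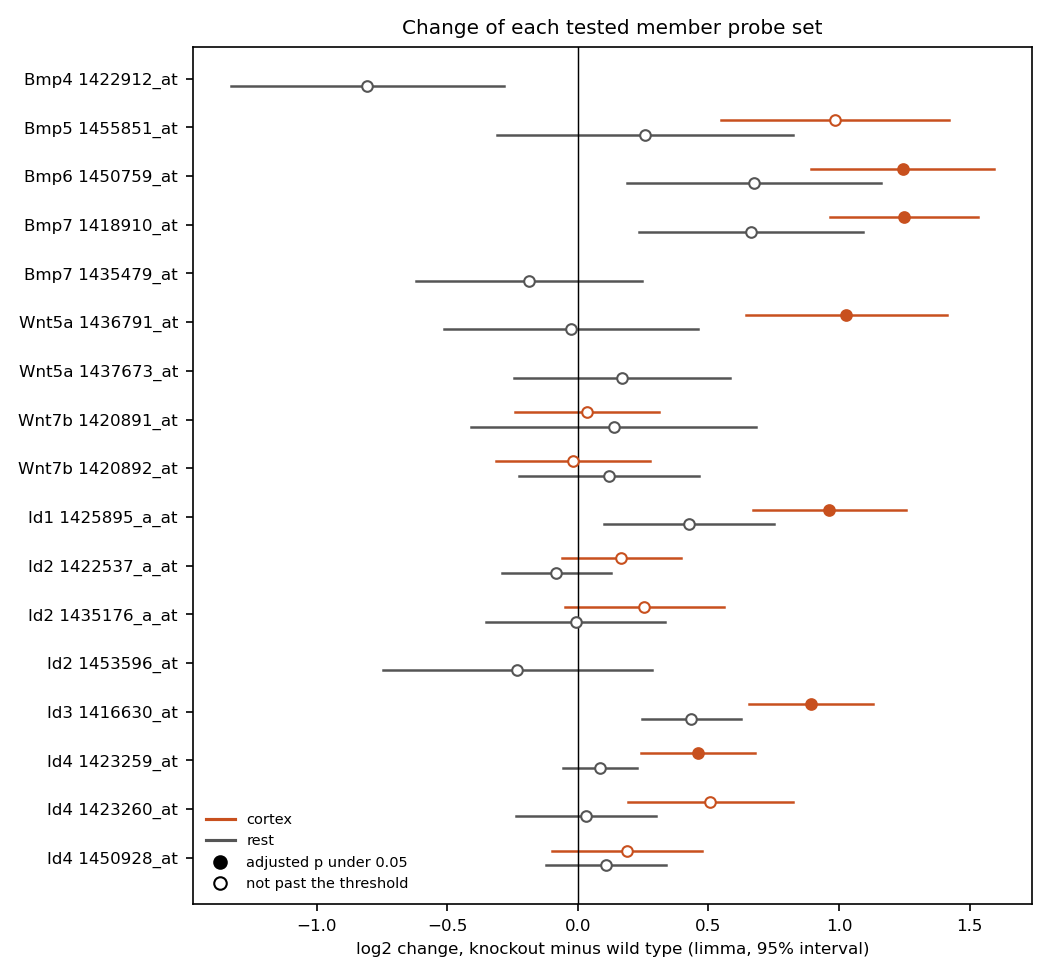
Log2 change (knockout minus wild type) of each tested probe set of the 10 genes with its 95% limma interval, cortex in orange (A chip; Bmp5 from the B chip) and rest in grey; filled points have an adjusted p under 0.05. The 6 filled points are all in the cortex and lie between 0.46 and 1.25; the intervals of both Wnt7b probe sets include 0.

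The promoters of Id3, which rose, Id4, which rose by 1 probe set, and Id2, which did not pass, are set side by side, since these genes are read as targets of BMP ligands. Capitals mark GGCGCC, the core of the BMP response element known from Id1, and E-boxes (CANNTG). The sequences are from RefSeq on GRCm38.p6: Id2 at chr12:25096043-25096342 (minus strand), Id3 at chr4:136143572-136143871 (plus strand) and Id4 at chr13:48260866-48261165 (plus strand).

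Id3: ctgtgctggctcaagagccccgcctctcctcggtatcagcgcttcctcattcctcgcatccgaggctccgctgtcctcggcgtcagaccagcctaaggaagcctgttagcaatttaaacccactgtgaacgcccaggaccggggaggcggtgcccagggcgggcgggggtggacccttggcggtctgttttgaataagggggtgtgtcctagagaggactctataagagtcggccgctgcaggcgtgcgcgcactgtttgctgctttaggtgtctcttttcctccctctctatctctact

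Id4: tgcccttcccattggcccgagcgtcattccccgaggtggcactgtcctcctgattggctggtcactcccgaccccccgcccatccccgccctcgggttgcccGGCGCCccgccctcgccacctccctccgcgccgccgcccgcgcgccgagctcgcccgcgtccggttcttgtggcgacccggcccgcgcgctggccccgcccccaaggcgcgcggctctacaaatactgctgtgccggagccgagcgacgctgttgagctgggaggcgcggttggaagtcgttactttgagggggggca

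Id2: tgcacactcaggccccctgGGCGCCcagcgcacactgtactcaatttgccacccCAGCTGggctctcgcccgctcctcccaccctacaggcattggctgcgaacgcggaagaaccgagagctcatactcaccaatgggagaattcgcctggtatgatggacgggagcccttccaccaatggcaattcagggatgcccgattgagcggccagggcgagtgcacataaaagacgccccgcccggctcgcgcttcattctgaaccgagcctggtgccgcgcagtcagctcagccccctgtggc

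GGCGCC occurs once in Id4, 148 bases before the start, and once in Id2, 231 bases before it; 11.9% of all promoters hold it. Id2 also has 1 E-box (CAGCTG) 196 bases before its start. Id3 holds neither, nor the Smad palindrome GTCTAGAC (0.213% of promoters) or the TCF/LEF motif CTTTGAT (3.73%), which none of the 6 promoters holds. A missing match says only that these letters are not in this window.

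With the sex pattern as a term, the cortex changes kept their direction for all 6 called probe sets, and only Bmp7 kept its call (log2 change 1.25, limma adjusted p = 0.0248). The changes in that fit were 0.78 for Id3 (adjusted p = 0.0604), 1.12 for Bmp6 (0.0807), 1.14 for Wnt5a (0.0983), 0.74 for Id1 (0.111) and 0.39 for Id4 (0.365). The fit has 1 knockout array without the Y-linked signal and assumes that the sex effect can be added to the genotype effect.

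In rest, all 10 genes could be tested, by 17 of 22 probe sets, and 0 were called by limma. The shares called over all probe sets of that table were 0.145% higher and 0.168% lower. An unadjusted p under 0.05 was reached by 5 of the 17 (4 higher, 1 lower in knockout), against 10.5% of all probe sets tested. The median log2 change of the 17 was 0.11, and 11 were above 0. Id3 came closest to the threshold: it read 519, 464.2 and 507.8 in wild type and 711.7, 660.1 and 659.6 in knockout. The genotypes did not overlap, but the log2 change of 0.43 (95% interval 0.25 to 0.62) did not pass (limma adjusted p = 0.076).

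Id1 and Bmp7 also had no overlap in rest. Id1 read 334.5, 261.1 and 351.5 against 491.7, 358.2 and 437.3 (log2 change 0.42, limma adjusted p = 0.333). Bmp7 by 1418910_at read 92.1, 75 and 136.1 against 181.1, 160.4 and 154.6 (0.66, adjusted p = 0.249). Its probe set 1435479_at differed in sign (231.7 and 151.7 in wild type with 1 blank; 148.3, 164.8 and 177.5 in knockout; log2 change -0.19, adjusted p = 0.798). The third, 1432410_a_at, was blank in all wild-type rest arrays and read 105.3, 113.5 and 127.5 in knockout. It is thus the Bmp7 probe set blank in wild type in both tissues. With blanks set low it was called in rest, but all its wild-type values were then filled in, so this is no test of a difference.

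Bmp6 was spread widely over the wild-type rest arrays, at 179.8, 87.7 and 126.1, against 181.6, 222.9 and 231.9 in knockout. The lowest knockout array lay just above the highest wild-type array, and the log2 change of 0.67 did not pass (limma adjusted p = 0.302). Bmp4 was the member with the lowest change: 182.1, 109.3 and 127.3 in wild type, and 60.4 and 83.6 in knockout with replicate 1 blank. The listed values did not overlap, and the log2 change was -0.81 (95% interval -1.33 to -0.28, limma adjusted p = 0.254). Bmp5 overlapped (log2 change 0.26, adjusted p = 0.784).

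Wnt5a overlapped in rest by both tested probe sets: 1436791_at read 123.6, 134 and 190.8 against 129.1, 114.8 and 200.3, a log2 change of -0.03 (95% interval -0.51 to 0.46). Wnt7b changes were 0.14 and 0.12. Id2 changes lay between -0.23 and -0.01 and those of Id4 between 0.03 and 0.11, with adjusted p from 0.709 to 0.992 (limma) for these 6 probe sets.

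Whether the changes differed between cortex and rest was tested directly. Of 12 probe sets of the A chip, 10 had the larger change in cortex and 0 passed (limma interaction, adjusted p from 0.229 to 0.936), where 0.0502% of all shared probe sets passed. An unadjusted p under 0.05 was reached by 6 of the 12, against 10.5% of all. The largest difference was that of Wnt5a, 1.05 (SE 0.302, 95% interval 0.40 to 1.71, limma adjusted p = 0.229). Id3 differed by 0.46 (adjusted p = 0.233), Bmp7 by 0.59 (0.38), Id1 by 0.54 (0.378) and Bmp6 by 0.57 (0.511). For Bmp5 the difference between the B chip and rest was 0.73 (limma adjusted p = 0.576), where 0% of shared probe sets passed and 7.94% had an unadjusted p under 0.05, as Bmp5 did. A call in cortex and none in rest is therefore not shown to be a difference between them.

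Other genes of these pathways were read from 10 lists, each gene counted once and called where any of its probe sets was. In the cortex A chip the receptors and Smads through which BMP ligands act had 0 of 8 tested genes called, with Bmpr1a at 0.20 and Smad1 at 0.07 and a median log2 change of 0.01 over the list, beside -0.01 over all probe sets tested. None of 3 other BMP ligands passed, nor did any of 3 BMP target transcription factors besides the Id genes (Hey1, Heyl and Msx1; Heyl log2 change 0.52, limma adjusted p = 0.104). Among 5 BMP antagonists and feedback inhibitors 1 rose: Fstl1, a secreted protein that can bind BMP4, from 338.9 ± 12.5 to 555.2 ± 31.3 (SD, n = 3; log2 change 0.69, limma adjusted p = 0.00134). The feedback inhibitor Smad7, itself a common target of Smads, did not pass (log2 change -0.13, adjusted p = 0.761). The median log2 changes were -0.11 for Gdf10, Inha and Inhbb, 0.35 for the antagonists and inhibitors and 0.13 for the target factors.

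On the Wnt side, the ligand list had 1 gene of 4 called: Wls, the carrier that takes Wnt proteins to the cell surface, was 81.5 ± 10.9 (SD, n = 2) in wild type and 186.9 ± 24.4 (n = 3) in knockout (log2 change 1.05, limma adjusted p = 0.00571; 1 of its 2 tested probe sets). The receptors Fzd6 (0.71, adjusted p = 0.0139) and Fzd7 (0.60, 0.0334) rose, out of 8 receptors tested. The antagonist list had 6 tested genes, among them Rspo2, which is a Wnt agonist. Of these, Apcdd1, a membrane inhibitor of Wnt signalling, rose (0.66, limma adjusted p = 0.00519, by 1 of 4 probe sets). The secreted antagonist Sfrp2 was lower but did not pass (-0.55, limma adjusted p = 0.0508). Of the 6 genes, 4 had a change above 0. Of 5 target genes, Ccn2 rose (1.10, adjusted p = 0.00448) and Ccnd1 rose by 1 of 3 probe sets (0.48, adjusted p = 0.026). Ccn2 is a matrix protein also induced by other pathways, and Ccnd1 is a cyclin. The standard β-catenin target Axin2 did not pass (0.17, adjusted p = 0.56), and 0 of 11 signal transducers did. The median log2 changes were -0.03 for the ligand list, 0.21 for the receptors, 0.16 for the antagonist list with Rspo2, 0.19 for the targets and 0.08 for the transducers.

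Of the bHLH partners and targets of Id proteins, 0 of 11 rose and 3 fell in the cortex. Neurod1, a factor of neuronal differentiation, fell by 1 of 2 probe sets (log2 change -0.98, limma adjusted p = 0.0366). Olig1, of the oligodendrocyte lineage, fell (-0.50, limma adjusted p = 0.0106), and so did the E protein gene Tcf4 by 4 of 5 probe sets (-0.44, adjusted p = 0.0243). The median over these 11 was -0.10. In rest, Olig2 fell, from 636.1 ± 17.9 to 299.7 ± 26.6 (SD, n = 3; log2 change -1.05, limma adjusted p = 0.00455), 1 of 12 genes tested, whose median was -0.14. No gene of the other 9 lists was called in rest, where their medians lay between -0.26 and 0.15, and none of any list on the B chip.

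**Figure D3:**
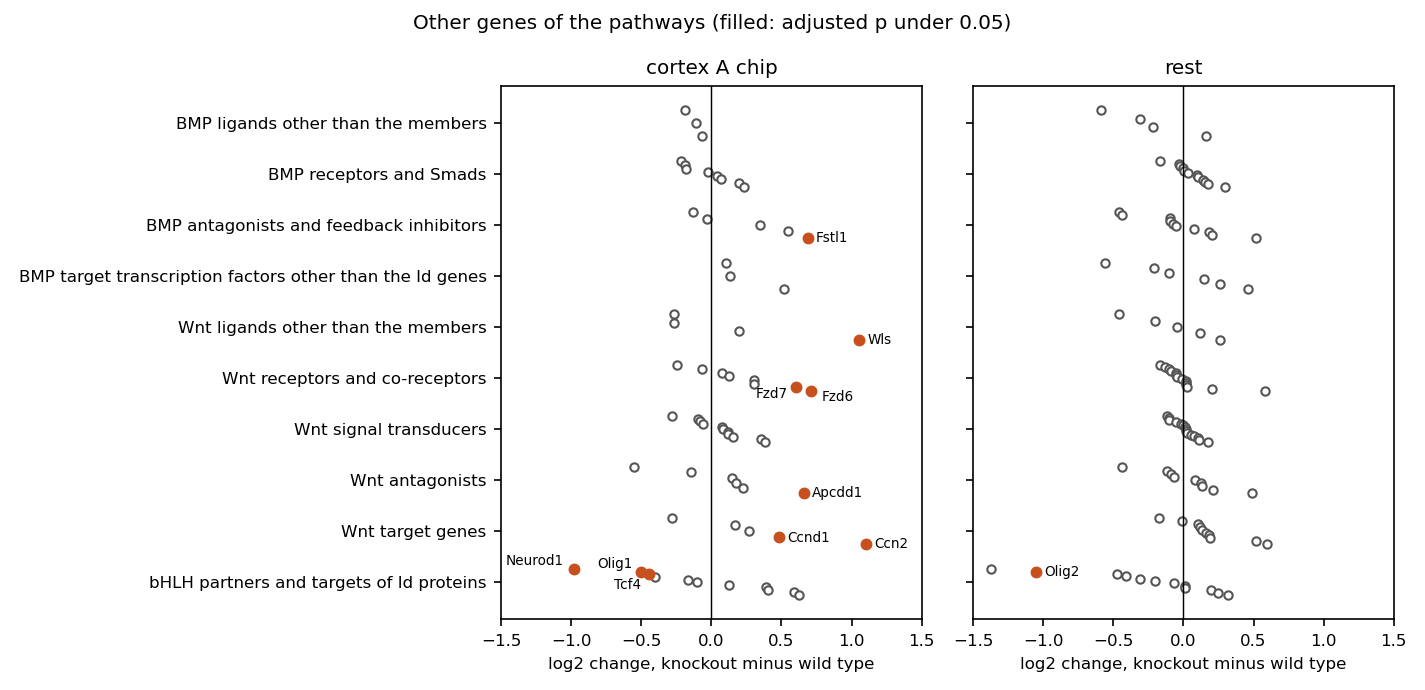
Log2 change (knockout minus wild type) of each tested gene of the 10 pathway lists, in the cortex A chip (left) and in rest (right). The probe set shown is the called one with the largest absolute change, or the brightest where none was called. Filled points have an adjusted p under 0.05 and carry the gene name. The BMP ligand list also holds inhibin and activin subunit genes, and the Wnt antagonist list also holds Rspo genes, which are Wnt agonists. In the cortex 7 filled points lie to the right of 0 and 3, all bHLH genes, to the left; in rest the single filled point is Olig2, at -1.05.

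Cell type markers moved with the same arrays. The markers of meningeal and perivascular fibroblasts rose in the knockout cortex for 14 of 15 tested genes (median log2 change 1.25). Their summed signal was 6610, 6881 and 7273 in wild type and 16700, 14560 and 13660 in knockout. In rest, 6 of 18 rose, and the sums were 17730, 10340 and 14200 in wild type and 17670, 21790 and 21470 in knockout. The fibroblast sum thus had a higher mean in knockout in both tables. Of the 17 tested probe sets of the 10 genes in rest, 11 had a log2 change above 0. The others were those of Bmp4, Bmp7 1435479_at, Wnt5a 1436791_at and Id2. In bulk tissue, more cells of a type and more RNA per cell cannot be told apart, and the part of these markers in the BMP, Wnt and Id changes was not tested.

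Other markers moved as well in the cortex A chip. Endothelial markers rose for 4 of 8 tested genes (sums 1389 to 1616 in wild type, 1993 to 2188 in knockout), with Pecam1 and Slco1a4 blank throughout. Pericyte and smooth muscle markers rose for 2 of 6 (1832 to 1908 against 2657 to 2863), and the defining smooth muscle genes Acta2, Tagln and Myh11 were blank throughout. Astrocyte and radial glia markers rose for 3 of 12 (9928 to 10720 against 11400 to 13890) and microglia and macrophage markers for 5 of 8. Oligodendrocyte lineage genes fell for 3 of 6 (4016 to 4863 against 2115 to 2734), and neuron markers for 1 of 12, with none higher.

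Choroid plexus markers, from a tissue that makes BMP ligands, varied within genotypes. On the A chip 0 of 2 passed, with a median log2 change of 0.94. There the sum held 1 gene, Ttr, at 4598, 2017 and 5127 in wild type and 5556, 5746 and 5182 in knockout. On the B chip 1 of 3 rose, and the sum was 13400, 3996 and 13840 in wild type and 17960, 24570 and 26440 in knockout. On both chips the lowest sum was that of wild-type replicate 2, and every knockout sum lay above every wild-type sum. In rest none of 7 passed, and the sums ranged from 6733 to 8004 in wild type and from 2232 to 9584 in knockout. In rest, 0 of 9 endothelial and 0 of 12 astrocyte markers passed, while 4 of 9 oligodendrocyte lineage genes fell. The part of any of these cell types in the changes was not tested.

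**Figure D4:**
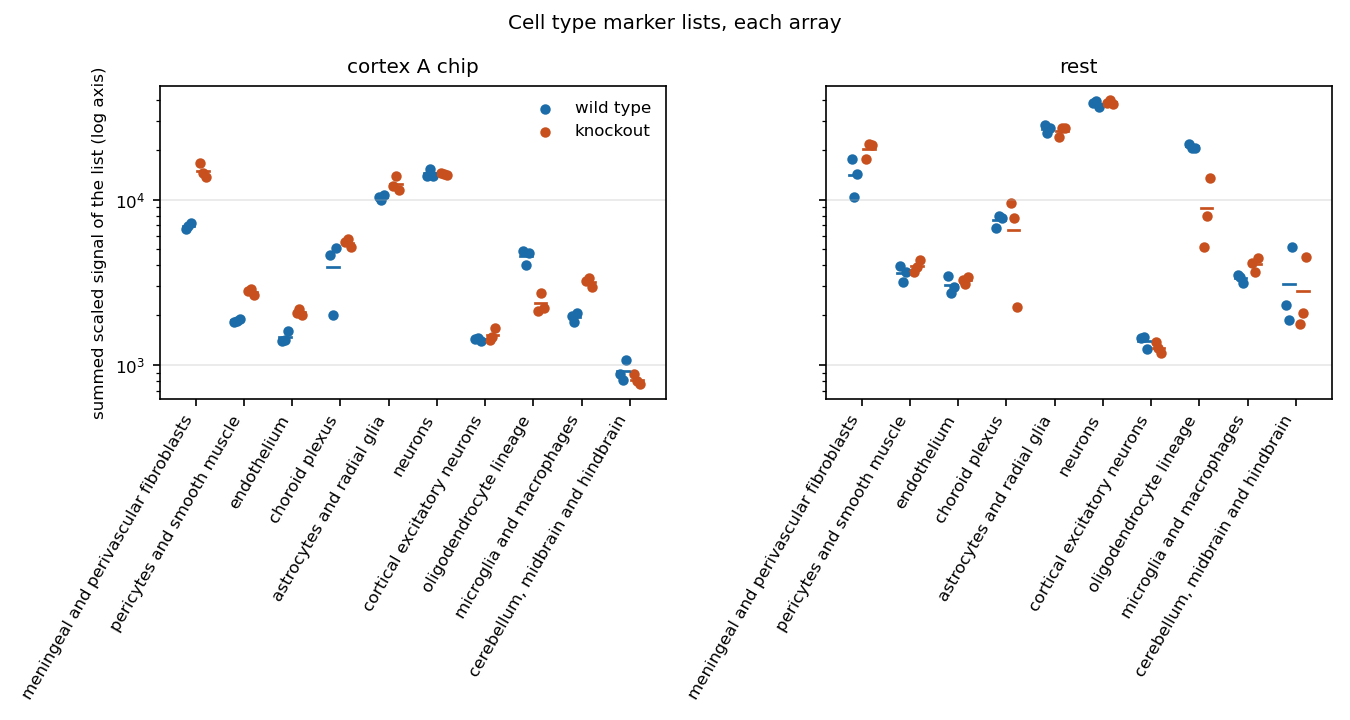
Summed scaled signal of each marker list on each array (log axis; 1 probe set a gene, the brightest of those listed on all 6 arrays), wild type in blue, knockout in orange, bars at the mean of 3 arrays, for the cortex A chip (left) and rest (right). In the cortex the fibroblast sums do not overlap (6610 to 7273 against 13660 to 16700), whereas the neuron sums do; in rest the lowest fibroblast knockout sum, 17670, lies under the highest wild-type sum, 17730.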

How the data were processed

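The authors deposited linear-scale intensity values, 1 signal a probe set, made with MAS5, per the submitters' processing notes; its version and settings are not given in the sources used here. Per the labels' protocols, total RNA was extracted with TRIZOL and labelled by the standard Affymetrix protocol. Controls were dropped. Within a table, arrays were brought to the same 2%-trimmed mean of the probe sets that all 6 arrays list, by factors of 0.9477 to 1.059. Blanks were left as missing.

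Knockout was compared with wild type within each table, and the change in cortex with that in rest in a joint fit of shared probe sets, by limma 3.58.1 in R 4.3.3 (lmFit, eBayes with an intensity trend) on log2(signal + 16). Benjamini-Hochberg adjustment ran over all probe sets tested (12065, 7838 and 21407), and the scripts were tested on simulated data. The median change of all probe sets was within 0.01 of 0 in each table. The 3 arrays a group limit the precision, and p-values measure only the spread between these samples. Symbols came from the array annotation, updated through RefSeq.

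All 10 genes are named, with every probe set; of the pathway lists, the called genes are named (up to 4 per list and table), and others are named as known examples, chosen after their values were seen. Genes, pathway lists and marker lists were chosen with earlier results of these data known. A list's median is over its tested genes, by the brightest probe set of each. A named list gene has the value of its called probe set with the largest absolute change. Where no probe set of the gene was called, the brightest was used. No list was tested as a set. Alternatives were other scalings, offsets of 1 and 64, stricter listing, blanks set low, a level filter at the 40th percentile, other variance models, array weights, a replicate block, a sex term, an adjusted p of 0.10 and leaving out each array.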

Additional observations from a re-analysis of the deposited data

How the results depend on the processing

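Of 836 recomputed changes and differences of the 10 genes, 781 kept their direction and side of the threshold, 16 lost a call, 4 gained one and 35 changed sign. Bmp7 (1418910_at) in the cortex passed under every alternative that gave it a value, and Bmp6, Id1 and Id3 passed under all that gave them a value but the sex term, and in 6 of 6 fits without an array.

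Counts of probe sets called (higher and lower together) moved as follows. On the cortex A chip (364, of which 6 of the 10 genes) they were 237 and 3 with the level filter, under which Bmp6, Bmp7 and Wnt5a were no longer tested, 83 and 1 with the sex term, 607 at an adjusted p of 0.10, and 185 to 330 without 1 array. On the B chip (22, and 0) they were 11 with blanks set low, 9 with no variance trend, 66 with array weights and 48 at 0.10, and 9 to 25 without 1 array; Bmp5 was the 1 member called with no rescaling, median centring, array weights or at 0.10. In rest (67, and 0) they were 103 with blanks set low, 37 with the level filter, 11 with no trend, 10 with the sex term, 161 at 0.10, and 13 to 69 without 1 array; 1 member was called with blanks set low (Bmp7 1432410_a_at) and 1 at 0.10 (Id3). The difference between the A chip and rest (6) came to 3 with an offset of 64 or no trend, 17 with blanks set low, 0 with the level filter, 11 with array weights, 16 at 0.10, and 3 to 28 without 1 array. Between the B chip and rest (0) it came to 2 with blanks set low and 0 to 4 without 1 array. The Bmp7 1432410_a_at call in rest with blanks set low had only filled-in values in wild type.

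Arrays with the same replicate number had correlations of their deviations from -0.02 to 0.251, with every pair above 0.1 in no comparison. In rest, the summed signal of the cerebellum, midbrain and hindbrain list was 5154 in wild-type replicate 3 and 4516 in knockout replicate 3. On the other rest arrays it was 1769 to 2295, and its part in the rest changes was not tested. These values do not settle whether same-numbered arrays are paired, and the main fits did not pair them. With the number as a replicate block, the B chip had 12 probe sets called and rest 142. Of the 10 genes, Id4 1423259_at lost its cortex call under the block (0.46, limma adjusted p = 0.0531). That call held in 8 of 13 alternatives that kept all arrays. It was also lost with quantile normalization, blanks set low, no variance trend and the sex term.

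The sign turned only for changes with a main log2 value from -0.19 (Bmp7 1435479_at in rest) to 0.17 (Wnt5a 1437673_at in rest). In the cortex, Wnt7b 1420891_at was -0.01 under quantile normalization and -0.01 to 0.07 without 1 array. Wnt7b 1420892_at was 0.85 with blanks set low, where the blank of wild-type replicate 3, beside 344.9 and 360.5, was replaced, 0.17 with the sex term and -0.11 to 0.09 without 1 array. In rest, Id2 1435176_a_at was 0.00 unscaled, 0.01 with median centring, 0.02 with quantile normalization and 0.28 with the sex term. Wnt5a 1436791_at was 0.02 with quantile normalization and 0.41 with the sex term, and 1437673_at was -0.01 with blanks set low. Bmp7 1435479_at was 0.43 with blanks set low. With the sex term Wnt7b 1420892_at was -0.03, Id4 1423260_at -0.17 and 1450928_at -0.10. Without 1 array, rest values ranged from -0.03 to 0.41 for Wnt7b 1420891_at, 0.00 to 0.28 for Wnt7b 1420892_at, -0.13 to 0.01 for Id2 1422537_a_at, -0.15 to 0.10 for Id2 1435176_a_at, -0.12 to 0.13 for Id4 1423260_at and -0.24 to 0.15 for Wnt5a 1436791_at. The differences between cortex and rest turned for Wnt7b 1420892_at with blanks set low (0.73) and, without 1 array, for Wnt7b 1420891_at (-0.38 to 0.06) and Id4 1450928_at (-0.05 to 0.19). The cause was not tested.

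Blanks left no tested value in the cortex for Bmp4, both Bmp5 probe sets of the A chip, and some probe sets of Wnt5a, Bmp7 and Id2.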
